A study of Mus musculus with 2 samples.

Results

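Sphingolipids are membrane lipids built on a sphingoid base, and 10 genes for their synthesis were followed in the ureters of Pparg-cKO and control embryos. The genes were chosen by name: Sptlc1, Sptlc2, Sptlc3, Sptssb, Kdsr, Degs1, Degs2, Fa2h, Ugcg and Sgms2. All spots with these gene names were used, which gave 12 probes for the 10 genes, of 29923 genes on the array. The choice was made with earlier results of the same arrays known, so the changes of these genes are given as a description without a test. Total RNA of pooled ureters from E18.5 embryos of the NMRI strain was compared on 2 two-colour arrays. On each array a control pool, labelled Pparg(fl/?) with the other allele not stated and no cre listed, was set against a Pparg-cKO pool, labelled Pax2-cre/+; Pparg(fl/fl). The pools were female on one array and male on the other. Pax2-cre is active in the nephric duct, the ureteric epithelium and the collecting duct, whereas the muscle and connective tissue of the ureter also entered the RNA. Dyes were exchanged between the arrays, so that sex, dye orientation and array cannot be told apart.

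Synthesis starts in the endoplasmic reticulum with serine palmitoyltransferase, which joins serine to an activated fatty acid. The enzyme consists of SPTLC1 with SPTLC2 or SPTLC3, and a small subunit, SPTSSA or SPTSSB, raises its activity and influences which fatty acid it takes. KDSR reduces the product, ceramide synthases attach a further fatty acid, and FA2H can hydroxylate that fatty acid. DEGS1 then introduces a double bond to yield ceramide, while DEGS2 can add a hydroxyl group to yield phytoceramide. UGCG and SGMS2 turn ceramide into glucosylceramide and sphingomyelin. The apical membrane of urothelial superficial (S) cells is known to be rich in cholesterol and in cerebrosides, which are simple glycosphingolipids.

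Promoter windows were available for 9 of the 10 genes (RefSeq, GRCm38.p6, 250 bases before to 50 bases after the start). They are shown for the genes lower in Pparg-cKO that had a window, Sptssb, Degs2 and Sptlc3, and for Sptssa, the alternative to Sptssb in the enzyme. The sequences run 5′ to 3′ on the strand of the gene, and capitals mark CG dinucleotides. The windows lie on the minus strand at chr3:69859845-69860144 (Sptssb), chr12:108702257-108702556 (Degs2) and chr12:54656523-54656822 (Sptssa), and on the plus strand at chr2:139493663-139493962 (Sptlc3).
Sptssb: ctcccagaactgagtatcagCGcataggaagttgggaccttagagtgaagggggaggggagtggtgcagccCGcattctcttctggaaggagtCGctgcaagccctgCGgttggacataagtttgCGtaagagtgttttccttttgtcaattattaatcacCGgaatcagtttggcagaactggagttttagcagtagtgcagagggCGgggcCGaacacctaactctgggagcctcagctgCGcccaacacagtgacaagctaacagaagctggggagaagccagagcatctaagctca
Sptssa: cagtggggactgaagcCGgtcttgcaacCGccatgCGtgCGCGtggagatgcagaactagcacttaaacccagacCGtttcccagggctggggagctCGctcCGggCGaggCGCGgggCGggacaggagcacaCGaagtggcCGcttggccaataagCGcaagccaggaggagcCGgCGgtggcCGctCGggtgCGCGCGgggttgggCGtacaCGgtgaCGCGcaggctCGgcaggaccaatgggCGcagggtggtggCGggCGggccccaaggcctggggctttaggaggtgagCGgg
Degs2: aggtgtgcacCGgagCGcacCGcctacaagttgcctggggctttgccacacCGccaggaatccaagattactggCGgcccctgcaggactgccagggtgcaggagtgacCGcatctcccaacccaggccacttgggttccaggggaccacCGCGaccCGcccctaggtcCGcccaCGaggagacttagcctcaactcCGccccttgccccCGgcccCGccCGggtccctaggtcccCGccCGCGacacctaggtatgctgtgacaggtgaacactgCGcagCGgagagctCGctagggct
Sptlc3: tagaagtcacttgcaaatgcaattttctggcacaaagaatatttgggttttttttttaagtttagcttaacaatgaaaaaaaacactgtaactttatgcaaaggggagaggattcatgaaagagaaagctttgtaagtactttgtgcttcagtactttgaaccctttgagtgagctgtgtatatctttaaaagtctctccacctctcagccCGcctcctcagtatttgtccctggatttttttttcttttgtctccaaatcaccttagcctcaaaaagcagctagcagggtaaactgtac
The genes that were lower did not share a CG content. The Sptssb window held 9 CG dinucleotides, the Sptlc3 window 1 and the Degs2 window 21, whereas the Sptssa window held 31 and the median over 32851 windows was 7. Both strands were searched for AGGTCA, the half-site of nuclear receptors such as PPARG and its partner RXR, which 16.3% of all windows hold. They were also searched for 2 copies of AGGNCA separated by 1 base, a pair of half-sites that can contain AGGTCA (0.381% of all windows), AACCNGGTT, the site of Grainyhead-like factors (0.271%), and TATAAA (13.6%). None of these letters occurred in the 4 windows shown, and of the 14 windows of all members 2 of the Sgms2 windows held AGGTCA.

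The position of the Pparg probe relative to the floxed exons was not mapped here, so Pparg is given without use as a check of the deletion. Its processed signal was 12357 in the female and 12930 in the male Pparg-cKO pool against 6113 and 6688 in the control pools. Signs here follow the deposited value table, whose columns are titled Pparg-cKO against control. The study's text and its in situ hybridization of tissue sections describe gene changes the same way, so this direction is called likely, but the dye labels give the opposite direction on both arrays. If the labels are right as written, every "higher" and "lower" is exchanged, while sizes and p-values stay. In the direction of the table the log2 ratio of Pparg was 0.98 for the female pair and 0.96 for the male pair (adjusted p = 0.0373 in limma, and 0.0511 with a prior estimated without a floor on small variances). Over all tested genes the ratios of both arrays correlated with a Pearson r of 0.448 and a Spearman rho of 0.154, a correlation across genes, which are not independent replicates. The number of arrays limits the precision of every value.

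Of the 10 genes, 4 were at least 1.5-fold lower in Pparg-cKO on both arrays: Sptssb, Degs2, Fa2h and Sptlc3. The ratios of Sptlc1, Sptlc2, Kdsr and Degs1 lay close to 0. Sptlc3 did not reach 1.5-fold on each array under median centring or with the median over its probes, where its mean log2 ratio was -0.63 and -0.46. A fold rule counted genes that differed at least 1.5-fold in the same direction on each array and whose brighter pool reached a processed signal of 100 on each. Sgms2 was too dim for the rule, and 4 of the remaining 9 genes passed it, all lower. Over all genes bright enough 1.84% passed it in either direction, with 0.792% higher and 1.05% lower, but the members were chosen on this contrast and nothing is read from their count. Bulk RNA cannot tell fewer cells of a type from less RNA per cell.

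Sptssb, the small subunit, had the largest difference among the members. Its processed signal was 520.1 in the female Pparg-cKO pool against 3557 in the female control pool, and 459.9 against 3158 in the male pools. Both control pools lay far above both Pparg-cKO pools. The female pair gave a log2 ratio of -2.79 and the male pair one of -2.72, a mean of -2.76 ± 0.05 (SD, n = 2), or 6.76-fold lower. The 4 spots of the probe (mm9 chr3:69624024-69624083, minus strand) ranged from -2.94 to -2.63 for the female pair and from -2.85 to -2.52 for the male pair. The ranges overlapped between the arrays.

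Degs2, the ceramide hydroxylase, was lower in the same way. Its processed signal was 339 against 1257 in the female and 306 against 1566 in the male pools, and the groups did not overlap. The log2 ratio was -1.84 for the female pair and -2.25 for the male pair (mean -2.05 ± 0.29, SD, n = 2), or 4.14-fold lower (probe at mm9 chr12:109928501-109928560, minus strand). Its spots ranged from -1.99 to -1.77 and from -2.38 to -2.18. Spots repeat the measurement of one pool and do not show how pools vary.

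Fa2h, the fatty acid hydroxylase, differed more on the female array. Its processed signal was 170.1 against 612 in the female and 267 against 546 in the male pools. Again both Pparg-cKO pools were below both control pools. The log2 ratio was -1.69 and -0.95 (mean -1.32 ± 0.52, SD, n = 2), or 2.50-fold lower (probe at mm9 chr8:113869096-113869155, minus strand). The spots did not overlap between the arrays, from -1.75 to -1.63 for the female pair and from -1.01 to -0.92 for the male pair. The same order, lower on the female array, was present in the median of 12 urothelial epithelium genes such as Cdh1, Krt8 and Upk2, which was a log2 ratio of -0.39 for the female pair and 0.41 for the male pair. Its part in the result of Fa2h was not tested.

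**Figure D1:**
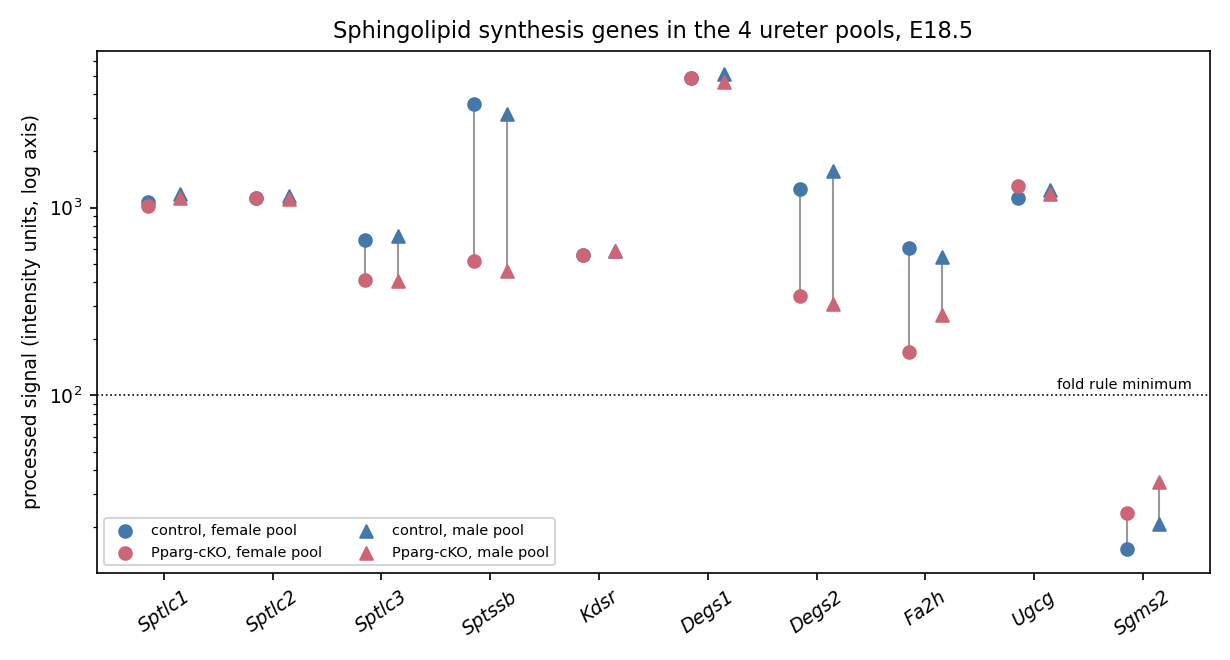
Processed signal (intensity units, log axis) of the probe used for each of the 10 genes in the 4 ureter pools, with circles for female and triangles for male pools, Pparg-cKO in red and control in blue, and a line joining the pools of one array. Sptssb, Degs2, Fa2h and Sptlc3 were lower in both Pparg-cKO pools than in both control pools. These are the genes that passed the fold rule, so nothing further is read from this separation. Levels of different probes cannot be compared with each other.

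Sptlc3, the alternative large subunit of serine palmitoyltransferase, had the smallest difference of the 4 genes. The processed signal was 412 against 673 in the female and 407 against 703 in the male pools. Both Pparg-cKO pools were lower, with little difference between the sexes. The log2 ratio was -0.71 and -0.74 (mean -0.73 ± 0.02, SD, n = 2), or 1.65-fold lower (probe at mm9 chr2:139451591-139451650, plus strand). A second, dim probe at chr2:139463351-139463410 had processed signals between 13.0 and 21.4 and log2 ratios of -0.20 and -0.21. On the scanner-processed signals the second probe gave -0.52 and -0.43, so both probes were lower. These signals differ from the main values in background correction, offset and dye normalisation, and which step moved the size was not tested.

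The partners of these genes in the same reactions were close to equal between the pools. Sptlc1, the invariant subunit, had a processed signal of 1024 against 1073 in the female and 1127 against 1174 in the male pools (mean log2 ratio -0.08 ± 0.02, SD, n = 2). For Sptlc2, the common large subunit, it was 1128 against 1123 and 1111 against 1156, with log2 ratios of -0.0045 and -0.07. A second, dim probe of Sptlc2 gave 0.10 and 0.02. Sptssa, the other small subunit, was not among the 10 genes and was tested: 3765 against 3419.9 and 3505 against 3501, a mean log2 ratio of 0.08 ± 0.0077 (SD, n = 2), for which limma gave an adjusted p of 0.926. Thus on these arrays Sptssb and Sptlc3 were lower, while the log2 ratios of Sptlc1, Sptlc2 and Sptssa ranged from -0.09 to 0.10 over their probes used here.

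Degs1, the ceramide desaturase, had 4908 against 4907 in the female and 4673 against 5112 in the male pools. Its mean log2 ratio was -0.07 ± 0.03 (SD, n = 2), in contrast to that of Degs2. Kdsr, the reductase of the second step, had 556 against 557 and 588 against 590.2, with a mean log2 ratio of 0.02 ± 0.03. The signs of Sptlc2 and Kdsr changed under other processing and carry no direction.

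Ugcg and Sgms2, the members that turn ceramide into other lipids, were not lower on both arrays. Ugcg, glucosylceramide synthase, had 1303 against 1129 in the female and 1177 against 1237 in the male pools, and log2 ratios of 0.28 and -0.04. The groups overlapped and the arrays differed in sign. Sgms2, a sphingomyelin synthase of the plasma membrane, was dim, with 23.6 against 15.2 and 34.7 against 20.6. Its log2 ratios were 0.35 and 0.47, but its signal was below 100 in all pools, and its spots ranged from 0.20 to 0.61 and from 0.15 to 0.63. The mean log2 ratio of 0.41 depended on the processing. It was 0.69 on the scanner-processed signals, 0.68 on the deposited table and 0.59 without an offset.

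**Figure D2:**
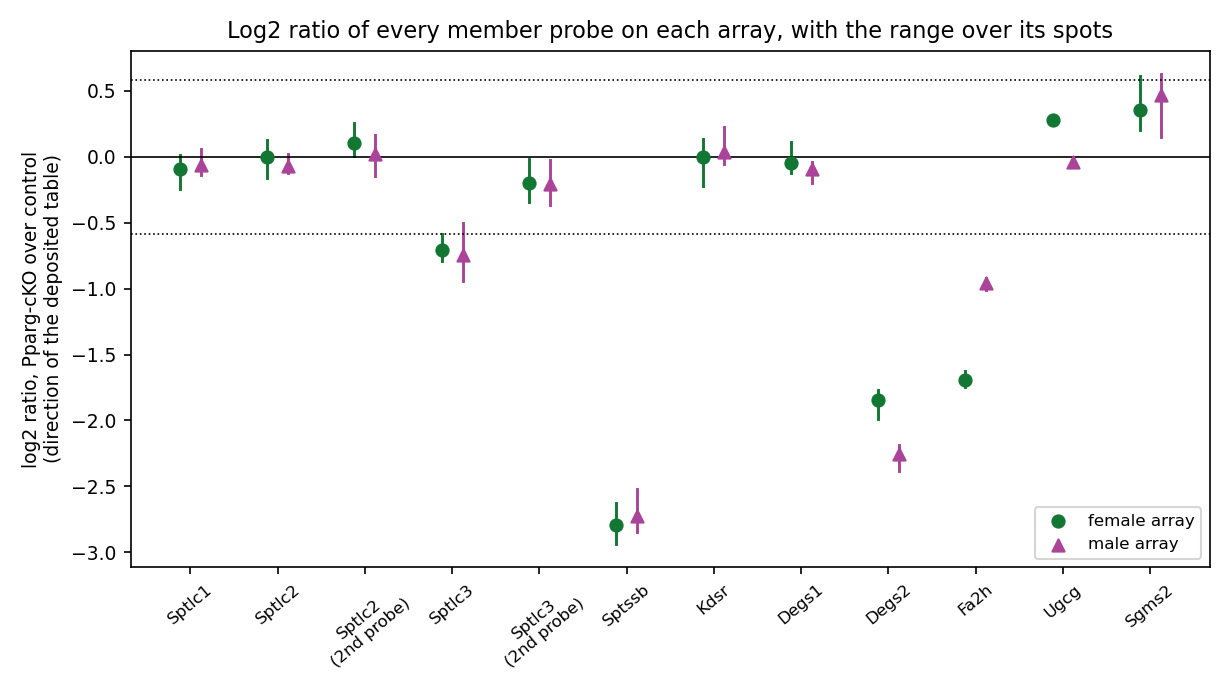
Log2 ratio of Pparg-cKO over control for each of the 12 probes on the female (circle) and male (triangle) array, in the direction of the deposited table, with lines spanning the lowest to the highest spot and dotted lines at 1.5-fold. Sptssb lay near -2.8 and Degs2 near -2.0, whereas Sptlc1, Sptlc2, Kdsr and Degs1 lay close to 0.

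To see how the wider pathway behaved, 77 other sphingolipid genes were listed by role, of which 76 were on the array under a listed name, 70 were tested in limma and 57 were bright enough for the fold rule. Of those tested, 24 were higher on both arrays (34.3%), 24 were lower on both (34.3%) and 22 differed in direction, while 26.6% of all genes tested were higher on both and 26.2% lower on both. The median log2 ratio of those tested was 0.0079, beside 0.0094 over all 22499 genes tested. In limma 2 of the 70 were called at an adjusted p under 0.05 (2.86%), both lower, while 0.751% of all genes were called, 0.382% higher and 0.369% lower. By the fold rule 5 of the 57 passed (8.77%), 3 higher and 2 lower, beside 1.84% of all genes bright enough, with 0.792% higher and 1.05% lower. This list too was drawn up with earlier results of these data known, so no enrichment is read from these shares.

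Acer2, an alkaline ceramidase of the Golgi that splits ceramide, fell. Its processed signal was 132 against 385 in the female and 132 against 405 in the male pools. The mean log2 ratio was -1.47 ± 0.03 (SD, n = 2), or 2.77-fold lower, with an adjusted limma p of 0.0120 (probe at mm9 chr4:86533009-86533068). A second probe gave -1.57 and -1.53, so both probes showed the same direction on both arrays. Elovl4, which elongates very long-chain fatty acids, fell as well, from 837 to 346 in the female and from 809.6 to 332 in the male pools. The mean log2 ratio was -1.22 ± 0.01 (SD, n = 2), or 2.32-fold lower, with an adjusted limma p of 0.0213 (probe at mm9 chr9:83673253-83673312). Its second probe gave -0.92 and -0.83. Both genes kept an adjusted p under 0.05 under every alternative tried except the deposited table, where it was 0.533 in limma for each.

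The other genes past the fold rule were higher and did not pass limma. Elovl7, another fatty acid elongase, had 707 against 378 and 704 against 472 (mean log2 ratio 0.76 ± 0.11, SD, n = 2, adjusted p = 0.0826 in limma). On the scanner-processed signals Elovl7 did not pass the fold rule. Ugt8a, which makes galactosylceramide, had 186 against 67.4 and 158 against 99.1 (0.93 ± 0.42, adjusted p = 0.151 in limma). Cyp4f39, which hydroxylates the end of very long fatty acids for acylceramides, had 158 against 85.5 and 178 against 106 (0.73 ± 0.04, adjusted p = 0.0820 in limma). All 3 genes were higher in both Pparg-cKO pools than in both control pools. They are named for passing the fold rule, so this separation adds no support. Ugt8a is also a Schwann cell gene. Sox10, a transcription factor of Schwann cells, had 94.1 against 90.1 in the female and 109 against 92.9 in the male pools. Other Schwann cell genes went both ways, with log2 ratios of 0.17 and 0.84 for Erbb3, -0.10 and 0.37 for Foxd3 and -0.09 and -0.47 for S100b. The part of Schwann cells in the result of Ugt8a was not tested.

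The direct counterparts of the members did not pass either rule. The inhibitory ORMDL proteins were represented by Ormdl1 (-0.40 and -0.27), Ormdl2 (-0.06 and -0.11) and Ormdl3 (-0.23 and 0.24), given as log2 ratios of the female and the male pair. Among the ceramide synthases Cers3, the enzyme for very long acyl chains in skin, had 2112 against 3301 and 2253 against 3244. Its log2 ratios were -0.68 and -0.41, with -0.60 and -0.50 for a second probe and an adjusted p of 0.240 in limma. Cers6 gave -0.65 and -0.16, Cers2 gave 0.20 and 0.15, Cers4 gave 0.25 and 0.04, and Cers5 gave 0.05 and 0.03. Sgms1, the Golgi sphingomyelin synthase, gave 0.22 and -0.0047. By role, 8 of the 12 elongation genes tested were lower on both arrays (66.7%, beside 26.2% of all genes tested), with a median log2 ratio of -0.19. Of the 4 genes tested for export and reception of sphingosine 1-phosphate, 2 were higher on both (beside 26.6% of all genes tested) and 0 lower on both. The roles were small, and the acylceramide genes had the same tally. Other roles were more even. Of 5 ceramide synthases 3 were higher and 2 lower on both, and of 11 genes for glycosphingolipid breakdown 3 were higher and 3 lower. Ceramide breakdown and sphingosine 1-phosphate metabolism had 4 higher and 4 lower of 11.

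**Figure D3:**
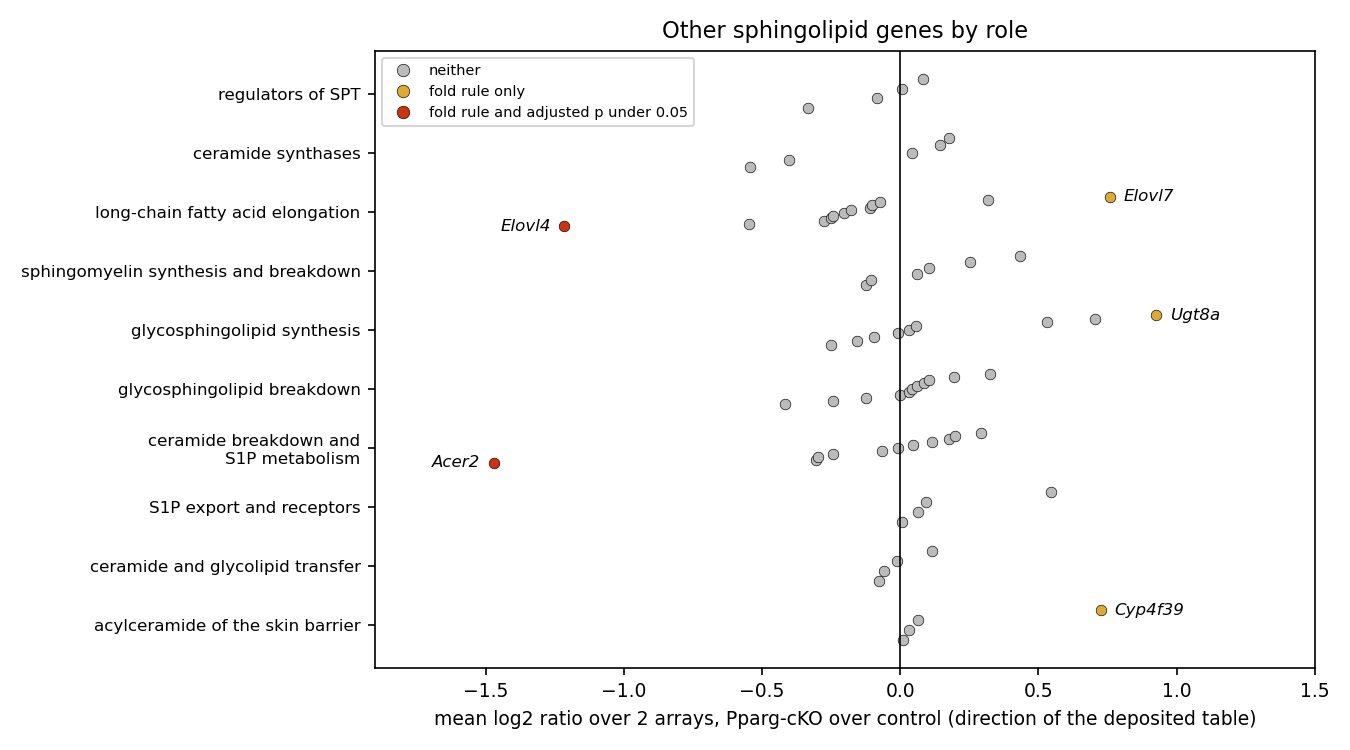
Mean log2 ratio over the 2 arrays of the 70 other sphingolipid genes tested, grouped by role, in the direction of the deposited table, with red points for genes past the fold rule and an adjusted p under 0.05 in limma, yellow points for the fold rule only and grey points for neither (SPT, serine palmitoyltransferase; S1P, sphingosine 1-phosphate). Acer2 at -1.47 and Elovl4 at -1.22 stood below the other genes, and Ugt8a at 0.93 above them.

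To place the members among other genes, the 5 genes with the pair of log2 ratios nearest to that of Sptssb were sought among 11200 named genes bright enough, as a distance over the 2 arrays. For Sptssb these were Hsd17b2 (-2.85 and -3.03), Ly6d (-3.04 and -2.97), Ttr (-2.55 and -3.09), Krt20 (-3.14 and -3.03) and Dnmt3l (-2.26 and -2.44), at distances of 0.307 to 0.603. The genes nearest to Fa2h were Shh (-1.72 and -1.09), Aqp3 (-1.60 and -1.09), Ly6k (-1.54 and -0.80), Upk1a (-1.91 and -1.12) and Rnf144b (-1.68 and -1.23), at distances of 0.135 to 0.274. With a pair of arrays such likeness describes only the size and the balance of the ratios.

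Markers of the cell types in the samples are given beside these results. All 11 S cell genes listed from the study, chosen there partly on these arrays, were lower by the fold rule, with a median log2 ratio of -1.51 (-1.79 for the female and -1.24 for the male pair). Their summed processed signal was 10130 and 11141 in the Pparg-cKO pools and 41153 and 33322 in the control pools. Of 12 urothelial epithelium genes 4 were higher on both arrays and 4 lower on both, with sums of 55233 and 74169 against 74232 and 64557. Of 7 smooth muscle genes 3 were lower on both arrays and 0 higher on both, with sums of 104187 and 101629 against 115427 and 116625. Their part in the differences of Sptssb, Degs2, Fa2h and Sptlc3 was not tested. Of 6 adipose tissue genes, the defining markers Plin1, Cidec, Lep and Cfd were not well above background, Adipoq was at 86.0 in the female control pool and at 8.24 to 13.1 in the others. Of 7 epidermis genes Flg2, Dsg1a and Lce3a were not well above background, and of the other 4 Krt1, Krt10 and Lor were higher on both arrays and Krt2 differed in direction. Krt10 had 595 against 565 and 578 against 563, whereas Lor, a gene of cornified cells, had 76.6 against 27.3 and 142 against 29.4 (mean log2 ratio 1.48 ± 0.48, SD, n = 2, adjusted p = 0.0580 in limma). Of 6 collecting duct genes Fxyd4 alone reached a signal of 100, with 536 against 77.4 and 596 against 109 (2.38 ± 0.21, adjusted p = 0.00620 in limma), while the water channel gene Aqp2 stayed between 21.8 and 28.1. Of 6 kidney tubule genes 3 were not well above background, including Umod, and the other 3 were lower on both arrays, with log2 ratios of -0.39 and -0.54 for Cubn, -0.13 and -0.89 for Lrp2 and -0.06 and -0.22 for Slc34a1. The 5 liver genes had a median log2 ratio of 0.03 for the female and -0.59 for the male pair, with Alb at -1.08 and Ahsg at -1.07 in the male pair, and the 5 blood genes one of 0.19 and 0.05. The part of these cell types in the differences of the members was not tested.

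**Figure D4:**
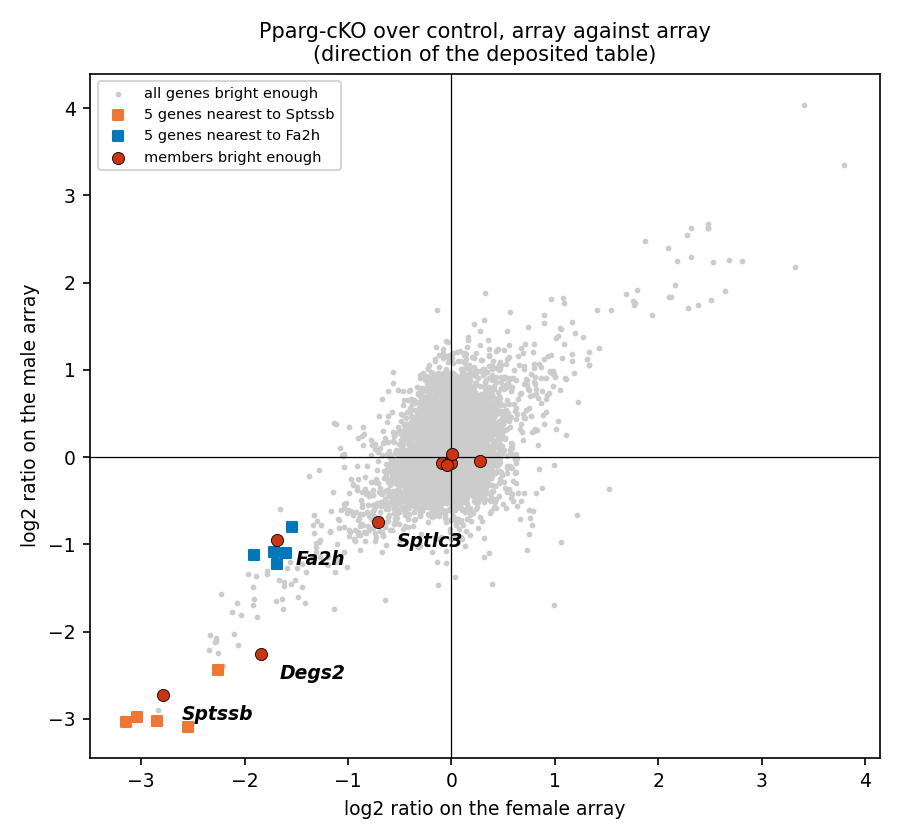
Log2 ratio of Pparg-cKO over control on the female array (x axis) against the male array (y axis) for every gene whose brighter pool reached a signal of 100 on both arrays, in the direction of the deposited table. Red circles are the 9 members bright enough, orange squares the 5 genes nearest to Sptssb and blue squares the 5 nearest to Fa2h, and Sptssb, Degs2, Fa2h and Sptlc3 lie in the lower left quadrant, below 0 on both axes.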

How the data were processed

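Two-colour Agilent arrays of E18.5 ureter RNA were read with Agilent Feature Extraction 10.7.3.1, per the labels. Per the file headers, the scanner files hold spot intensity on a linear scale (mean signal, median background and a background-corrected, dye-normalised processed signal) and a log10 ratio of red over green, which was not used. The authors' deposited value table holds 1 signed fold change per probe and array, a score in which a fall of N-fold is written as -N. Probe positions are on mm9, and exon structure was not analysed here.

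Mean signals were corrected with normexp (offset 50) and normalised by loess within arrays in limma 3.58.1 (R 4.3.3), with control spots at weight 0. Flagged outlier spots were left out (2.87% and 3.24%), and 0 spots were saturated. The up to 4 spots of a probe were averaged, and the brightest of a gene's probes was used. Log2 ratios were turned to the sign of the deposited table, with which the log2 red over green ratio correlated at r = 0.905 (female) and -0.932 (male). The dye labels give the opposite sign on both. limma (lmFit, eBayes, two-sided) tested 22499 genes whose probe stood well above background in either channel on each array, with Benjamini-Hochberg adjustment, 1 residual and 4 prior degrees of freedom. On simulated data it made more false calls than its nominal rate, so a prior without a floor on small variances was added after seeing the data. The p-values rest on the spread between the 2 arrays, moderated by a prior estimated over all genes tested.

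Members and gene lists were chosen with earlier results of these data known. Named genes were all members, other sphingolipid genes past the fold rule or called in limma, direct counterparts of members, the 5 genes nearest to Sptssb and to Fa2h, and Pparg. Cell type markers are also named, as are Psap and Cptp, which were flagged for opposite directions on the arrays. Gene names are those of the array design. Some listed marker genes, and the totals of the list that holds them, are not reported here. Alternatives were the scanner-processed signals, normexp without an offset, median centring, the median over a gene's probes, the deposited table, a 2-fold threshold, no minimum signal, no filter on dim probes, and each array alone.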

Additional observations from a re-analysis of the deposited data

Results flagged for a closer look

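Among the 80 members and other sphingolipid genes tested, 2 differed by at least 1.2-fold in opposite directions on the arrays, and 0 of these were members. Psap, the precursor of the saposins that help break down glycosphingolipids, had log2 ratios of -0.37 for the female and 0.37 for the male pair, a difference of 0.738. Cptp, a transfer protein for ceramide phosphate, had -0.29 and 0.27, a difference of 0.556. Neither difference was tested, and sex, dye orientation and array cannot be told apart.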

How the results depend on the processing

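Sptssb, Degs2, Fa2h and Sptlc3 stayed lower in Pparg-cKO under the 7 alternatives that gave a mean log2 ratio, which ranged from -2.80 to -2.69, from -2.25 to -1.84, from -1.69 to -0.95 and from -0.75 to -0.46. The fold rule lost Sptlc3 under median centring and under the median over all probes, and Sptlc3 and Fa2h at 2-fold. At 2-fold, 112 of all genes, 2 members and 2 other sphingolipid genes passed. Over all genes the fold rule gave 111 higher and 147 lower in the main setting. Under median centring it gave 115 higher and 102 lower, so the balance of directions turned with the normalisation. With 1 array alone, 1253 genes passed without the female array (965 higher, 288 lower) and 444 without the male array (176 higher, 268 lower), so the balance of directions turned with the array. Other sphingolipid genes were 8 (6 higher, 2 lower) and 9 (3 higher, 6 lower), and members 4 each time, all lower. In limma, 571 genes and 5 other sphingolipid genes were called without an offset, when Elovl7, Ugt8a and Cyp4f39 passed as well. On the deposited table limma called 0 genes and 0 other sphingolipid genes, although 2101 and 15 had an unadjusted p under 0.05; the cause was not tested. Without a filter on dim probes 94 genes were called. More genes were then tested and the prior was fitted anew, and the part of each was not tested. With the added prior 129 genes were called, and Acer2 and Elovl4 kept an adjusted p under 0.05 (0.0191 and 0.0311). Ugt8a passed under median centring (adjusted p = 0.0428). limma could not be run with 1 array, which leaves no residual degrees of freedom. No further pairing was added because each ratio already pairs both pools of an array and both arrays lie in 1 group. Dim probes such as Sgms2 lie close to background, where the offset pulls ratios towards 0.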
